A study of Mus musculus with 16 samples.

Results

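Simple and periderm keratins are the 7 genes *Krt4*, *Krt7*, *Krt8*, *Krt13*, *Krt18*, *Krt19* and *Krt20*, taken by symbol from 49452 genes that include 54 symbols of the keratin family. Back-skin epidermis of mice with and without *Sas-4* was read by RNA-Seq in 16 libraries, 4 control and 4 mutant at embryonic day E13.5 and 4 of each at birth (P0). *Sas-4*, listed as *Cenpj*, encodes a protein required to form centrioles, the cores of the centrosome. The question put to these libraries was how the epidermis responds at each stage when centrioles are lost. By the genotype tags, all 8 controls were fl/wt for *Sas-4* and all 8 mutants were fl/fl. The mutants carried *K14-Cre* (tg/wt), as did controls 2 and 3 at P0, whereas controls 1 and 4 at P0 and the 4 libraries titled control at E13.5 were wt/wt for *K14-Cre*. All animals therefore carried at least 1 floxed allele, and the labels give FVB/C57BL6 as the strain of all of them. *K14-Cre* acts in keratin 14 expressing stratified epithelium, so skin cells that do not descend from that epithelium keep *Sas-4*. At E13.5, where controls lack the transgene, Cre and *Sas-4* loss cannot be told apart. The E13.5 samples were epidermal sheets dissected from embryos, and the P0 samples were keratinocytes dissociated from the epidermis and not plated.

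Keratins form filaments only as pairs of an acidic type I and a basic type II chain. *Krt8* and *Krt7* are type II and *Krt18*, *Krt19* and *Krt20* are type I keratins, and together they build the filaments of simple, single-layered epithelia. In skin the same genes are known from the periderm, the flat layer that covers the embryonic epidermis until the barrier forms, and *Krt8*, *Krt18* and *Krt20* also from Merkel cells, the touch receptor cells of the epidermis. *Krt4* (type II) and *Krt13* (type I) are the pair of the suprabasal layers of internal stratified epithelia such as the oesophagus. The values are FPKM, read fragments per unit of gene length and of sequencing depth, so levels can be set side by side between genes as well as between libraries of a stage.

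The members lie in the 2 keratin clusters of the mouse genome (mm10, as the files give it). The type II genes are on chromosome 15, *Krt7* (ENSMUSG00000023039) from 101411043 to 101430313 on the plus strand, *Krt4* (ENSMUSG00000059668) from 101918536 to 101924735 on the minus strand and *Krt8* (ENSMUSG00000049382) from 101996711 to 102004342 on the minus strand. *Krt18* (ENSMUSG00000023043) is the type I gene that lies beside them, from 102028216 to 102032026 of chromosome 15 on the plus strand, and 23873 bases separate it from its partner *Krt8*. On chromosome 11, all on the minus strand, are *Krt20* (ENSMUSG00000035775) from 99428403 to 99438150, *Krt13* (ENSMUSG00000044041) from 100117327 to 100121566 and *Krt19* (ENSMUSG00000020911) from 100140810 to 100148665. The annotation holds 1 pseudogene of *Krt8*, which reached at most 0.138 FPKM at P0, and the counting of reads that such copies share was not described in the sources read.

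The promoters are printed for the *Krt8* and *Krt18* pair, which moved together at E13.5, for *Krt20*, and for *Krt7*, which did not pass the test at P0. Each runs from 250 bases before to 50 bases after the start site of RefSeq on GRCm38.p6, and 5 of the 7 members had an entry. The windows are chr15:102004293-102004592 (minus strand) for *Krt8*, chr15:102027966-102028265 (plus strand) for *Krt18*, chr11:99438104-99438403 (minus strand) for *Krt20* and chr15:101412153-101412452 (plus strand) for *Krt7*. Capitals mark matches on either strand to TATAAA, the TATA box, or GGGCGG, the GC box.
Krt8: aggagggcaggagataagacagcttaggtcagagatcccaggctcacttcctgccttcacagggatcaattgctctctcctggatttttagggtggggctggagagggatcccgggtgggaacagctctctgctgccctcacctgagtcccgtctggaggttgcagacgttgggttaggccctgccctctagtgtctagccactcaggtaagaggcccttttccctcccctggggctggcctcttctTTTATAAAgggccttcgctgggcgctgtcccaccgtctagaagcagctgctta
Krt18: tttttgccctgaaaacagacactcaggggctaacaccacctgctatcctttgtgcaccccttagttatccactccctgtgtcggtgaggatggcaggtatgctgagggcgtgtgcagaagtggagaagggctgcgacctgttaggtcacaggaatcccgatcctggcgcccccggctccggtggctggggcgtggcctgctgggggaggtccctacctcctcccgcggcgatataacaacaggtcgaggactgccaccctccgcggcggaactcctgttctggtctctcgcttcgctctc
Krt20: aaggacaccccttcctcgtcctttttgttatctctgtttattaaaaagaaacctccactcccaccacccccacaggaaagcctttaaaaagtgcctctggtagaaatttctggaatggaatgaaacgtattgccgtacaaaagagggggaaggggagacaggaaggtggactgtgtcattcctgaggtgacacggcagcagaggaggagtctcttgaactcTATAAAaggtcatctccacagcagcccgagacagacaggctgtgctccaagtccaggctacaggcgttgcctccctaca
Krt7: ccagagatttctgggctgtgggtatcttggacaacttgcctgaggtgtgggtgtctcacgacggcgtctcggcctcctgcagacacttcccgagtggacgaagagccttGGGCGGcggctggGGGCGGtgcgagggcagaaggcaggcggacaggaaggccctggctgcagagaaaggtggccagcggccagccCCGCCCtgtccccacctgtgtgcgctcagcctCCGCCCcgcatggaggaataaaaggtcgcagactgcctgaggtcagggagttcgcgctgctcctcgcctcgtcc
*Krt20* held TATAAA 29 bases before the start. *Krt8* held it across the annotated start, with an overlapping match on the opposite strand. *Krt7* held 4 GC boxes and *Krt18* held neither motif. Of 32851 promoters of the same length, 13.6% held TATAAA and 35.7% held GGGCGG. The Grainyhead motif AACCGGTT, in 0.146% of promoters, and the p53 decamer motif, in 8.36%, had no match in the windows of any member with an entry, which says only that these letters are not there. The AP-1 motif TGANTCA, in 7.81% of promoters, was found among members only in *Krt13*, in both of its entries. These are letter matches and not measured sites.

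The libraries held 546593 to 740238 FPKM in sum, and depths relative to control 1 of each stage, read from the lowest values, were 0.842 to 1.108. Read numbers are not part of the files, so no counting interval was given. *Cenpj* was at 3.22 to 4.35 FPKM in P0 controls and 1.09 to 1.52 in P0 mutants. At E13.5 it went the other way, with 8.66 to 9.17 FPKM under the mutant titles and 3.56 to 3.85 under the control titles. The column names of the E13.5 values also give the opposite genotype to the titles for all 8 libraries. The grouping used here for E13.5 is that of the titles and tags, and every direction given for E13.5 reverses under the column names. *Krt5* and *Krt14*, the keratins of basal keratinocytes, averaged 1230 and 993 FPKM at E13.5 (titled control) and 9248 and 7343 FPKM in P0 controls. Nothing states that replicates came from separate litters, so p-values measure the spread between these libraries.

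At E13.5, 5 of the 7 members were well expressed, and in the libraries titled control they stood in the order *Krt19*, *Krt7*, *Krt18*, *Krt4* and *Krt8*. *Krt19*, the small type I keratin, had 58.1 ± 11.1 FPKM (mean ± SD, n = 4 here and below), and *Krt7* 53.9 ± 8.35. *Krt18* had 23.6 ± 3.0, *Krt4* 21.6 ± 5.95 and *Krt8* 21.0 ± 4.55 FPKM. *Krt19* and *Krt7* overlapped each other, as did *Krt18*, *Krt4* and *Krt8*, while both of the first were above all of the last 3 in each library. *Krt19* was the 6th and *Krt8* the 10th highest of the 54 keratins. *Krt13* and *Krt20* stayed under 1 FPKM in all 8 libraries, so neither was borne out as a periderm keratin of these sheets. The 7 members made up 5.35% to 7.76% of the FPKM of all keratins under the control titles and 3.20% to 4.60% under the mutant titles. Their sums overlapped, at 149 to 218 FPKM under the control titles and 84.6 to 153 under the mutant titles.

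**Figure D1:**
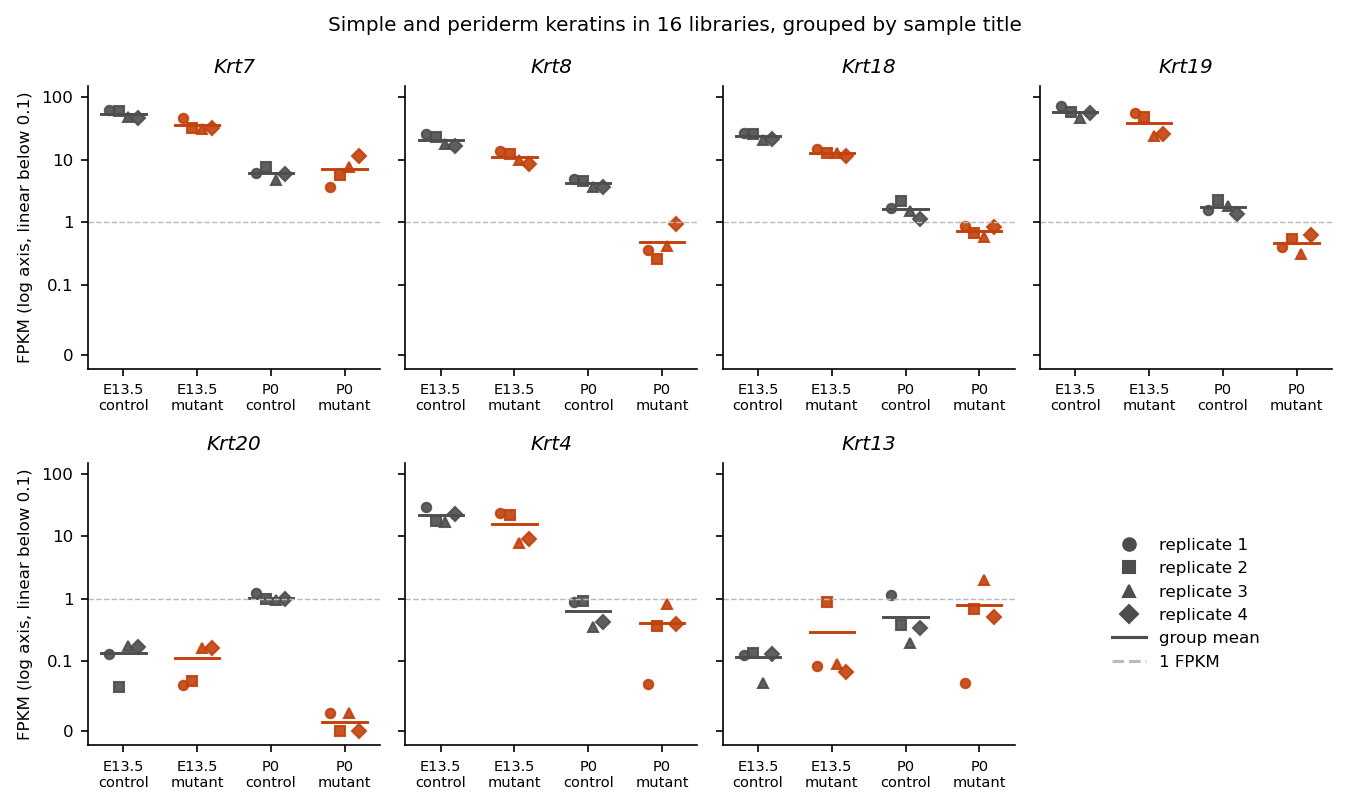
FPKM of each of the 7 keratins (log axis, linear below 0.1) in the E13.5 and P0 libraries, by sample title; each point is 1 library, the short line is the mean of 4 and the dashed line is 1 FPKM. *Krt8*, *Krt18*, *Krt19* and *Krt20* do not overlap between control and mutant at P0, and the E13.5 groups change places if the column names are used.

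At E13.5 *Krt8*, *Krt18* and *Krt7* were lower under the mutant titles, while *Krt4* and *Krt19* did not pass the test. In replicate order, *Krt18* had 26.7, 25.7, 20.8 and 21.3 FPKM by title in the controls, against 14.7, 12.7, 12.7 and 11.6 in the mutants. The groups were fully apart, and the means differed by 1.82-fold. Its log2 fold change on log2(FPKM + 1), a scale that understates changes of low genes, was -0.82 with a standard error (SE) of 0.09 (adjusted p = 0.000511 from limma, Benjamini-Hochberg over all genes tested). *Krt8*, its type II partner, was 26.2, 23.3, 18.1 and 16.4 FPKM (titled control) against 13.7, 12.1, 9.87 and 8.57 (titled mutant). The *Krt8* groups were also apart, by 1.90-fold in the means (log2 change -0.86 ± 0.17 SE, adjusted p = 0.00743 from limma). *Krt7* was 61.7, 60.5, 47.3 and 46.0 FPKM (titled control) against 46.0, 32.4, 30.4 and 32.4 (titled mutant). The highest *Krt7* library titled mutant was just below the lowest titled control (45.97 against 46.03), and the log2 fold change was -0.60 ± 0.14 (SE, adjusted p = 0.0162 from limma). Without the filter on low genes, described in the processing, the adjusted p of *Krt7* from limma was 0.0505.

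*Krt19* and *Krt4* varied more within the libraries titled mutant than the other 3 tested members did. *Krt4* was 29.7, 17.6, 16.7 and 22.3 FPKM (titled control) against 23.5, 22.2, 7.73 and 8.88 (titled mutant). *Krt19* was 73.2, 56.8, 46.3 and 56.1 FPKM (titled control) against 54.8, 47.6, 23.6 and 26.2 (titled mutant). For both genes the libraries titled mutant 3 and 4 were below all libraries titled control, and the libraries titled mutant 1 and 2 were within or near their range. The log2 fold change was -0.57 for *Krt4* (95% interval -1.37 to 0.24, limma adjusted p = 0.273) and -0.67 for *Krt19* (95% interval -1.27 to -0.07, limma adjusted p = 0.0982). Without mutant replicate 1, the adjusted p of *Krt19* from limma was 0.0427.

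**Figure D2:**
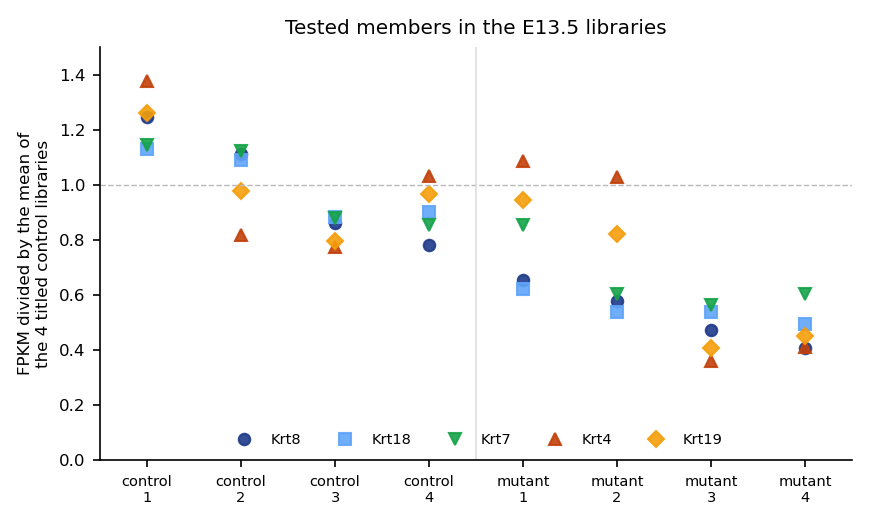
FPKM of the 5 tested keratins in each E13.5 library, divided by the mean of the 4 libraries titled control (dashed line at 1). *Krt8* and *Krt18* are at 0.41 to 0.65 in all 4 libraries titled mutant, whereas *Krt4* is at 1.09 and 1.03 in the libraries titled mutant 1 and 2 and at 0.36 and 0.41 in 3 and 4.

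Of the 5 members tested at E13.5, 3 were lower, 0 were higher and 2 did not pass. Of all 12866 genes tested at this stage, 13.4% were lower and 11.8% were higher, and the median log2 fold change was -0.67 over the 5 members and 0.00 over all genes. Of all 7 members, 3 had every library titled mutant below every library titled control, against 8.46% of the genes above 0 in at least 1 library. *Krt13* and *Krt20* were too low to be tested with the other genes. By an exact permutation test over the 70 assignments of 4 libraries against 4, two-sided and not adjusted over the 14 such tests made, *Krt7*, *Krt8* and *Krt18* each had p = 0.0286, the smallest it can give, *Krt19* 0.114, *Krt4* 0.286, *Krt20* 0.571 and *Krt13* 0.914. The libraries titled control 3 and 4 carry a label number that none of the other 6 carries. When they were left out the log2 fold change was -1.11 for *Krt8*, -0.97 for *Krt18* and -0.79 for *Krt7*, all past the limma test, and 1267 rather than 3243 genes in all passed. With no filter, all 7 members entered, and *Krt8* and *Krt18* were lower, against 5.37% of 26731 genes. By column name the same 3 members are higher in mutants, with the same sizes.

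*Krt13* stood near 0.1 FPKM at E13.5 in all libraries but 1. It was 0.128, 0.136, 0.0691 and 0.131 FPKM (titled control) against 0.0940, 0.903, 0.0962 and 0.0849 (titled mutant), so that the library titled mutant 2 alone was high. *Krt20*, a keratin of intestinal, urothelial and Merkel cells, was 0.0638 to 0.174 FPKM (titled control) and 0.0657 to 0.162 FPKM (titled mutant).

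At P0 the members were minor keratins. Of all keratin FPKM they made up 0.0363% to 0.0588% (controls) or 0.00903% to 0.0233% (mutants). Their order in the controls was *Krt7*, *Krt8*, *Krt19*, *Krt18*, *Krt20*, *Krt4* and *Krt13*. Neighbours in this order overlapped in their spread, except *Krt8* with *Krt19* and *Krt20* with *Krt4*. *Krt7*, the highest, ranked 22 of 54 keratins in the controls. Set beside the P0 controls, the E13.5 libraries titled control had 33.5 times the mean FPKM of *Krt4*, 33.1 times that of *Krt19*, 14.4 times that of *Krt18*, 8.81 times that of *Krt7* and 5.00 times that of *Krt8*. *Krt20* and *Krt13* went the other way, with 0.13 and 0.225 times the P0 level. With the E13.5 controls taken by column name these ratios were 24.2, 21.7, 7.92, 5.77 and 2.64 for the first 5, and 0.111 and 0.569 for the last. The 2 tables were made separately, and stage goes with the way the tissue was prepared, so these ratios carry no test and age cannot be told apart from preparation.

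*Krt8*, *Krt19*, *Krt18* and *Krt20* were lower in the P0 mutants, and *Krt7* was not. *Krt8* was 4.89, 4.52, 3.71 and 3.68 FPKM in controls 1 to 4 and 0.356, 0.257, 0.423 and 0.940 in mutants 1 to 4. The lowest control was above every mutant, and the means differed by 8.50-fold (log2 change -1.81 ± 0.15 SE, adjusted p = 2.73e-05 from limma). *Krt19* was 1.57, 2.26, 1.81 and 1.37 FPKM in the controls and 0.405, 0.536, 0.307 and 0.639 in the mutants. Its groups were apart by 3.72-fold in the means (log2 change -0.90 ± 0.12 SE, adjusted p = 0.000478 from limma). *Krt18* was 1.68, 2.178, 1.54 and 1.141 FPKM in the controls and 0.860, 0.686, 0.582 and 0.828 in the mutants, 2.21-fold apart in the means (log2 change -0.59 ± 0.13 SE, adjusted p = 0.00584 from limma). The *Krt18* call was lost with quantile normalization (limma adjusted p = 0.0756) and against controls 1 and 4 only, which lack *K14-Cre* (limma adjusted p = 0.0530). In RNA from all dissociated cells together, fewer cells of a type and less RNA per cell cannot be told apart.

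*Krt20* was near 0 in the P0 mutants. It was 1.23, 0.990, 0.953 and 0.992 FPKM in controls 1 to 4 and 0.0255, 0, 0.0254 and 0 in mutants 1 to 4. It was listed at 0 in mutants 2 and 4, and since it reached 1 FPKM in only 1 library it did not pass the filter. The exact permutation test gave p = 0.0286, its smallest value. With no filter its log2 change, which near 0 depends on the pseudocount, was -1.01 (SE 0.05, adjusted p = 3.78e-05 from limma).

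*Krt7* was 6.13, 7.59, 4.79 and 5.95 FPKM in the P0 controls and 3.62, 5.68, 7.51 and 11.4 in the mutants. The mutants spread on both sides of the controls, with mutant 4 above all of them and mutant 1 below. The log2 fold change was 0.10 ± 0.27 (SE, 95% interval -0.51 to 0.70, limma adjusted p = 0.793), and it was -0.14 without mutant replicate 4. *Krt4* ranged over 0.359 to 0.908 FPKM in controls and 0.0684 to 0.839 in mutants, and *Krt13* over 0.195 to 1.15 and 0.0692 to 1.97, with overlap in both. The exact permutation test gave p = 0.257 for *Krt4* and 0.629 for *Krt13*.

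Of the 4 members tested at P0, 3 were lower and 0 were higher, where 30.7% of all 13033 genes tested were lower and 11.7% higher. *Krt8*, *Krt18* and *Krt19* reached 1 FPKM in the 4 controls alone and entered the test only through them, so they had to differ and their number is no support for a change of the group. With no filter, all 7 members entered, and *Krt8*, *Krt18*, *Krt19* and *Krt20* were lower (limma adjusted p from 3.78e-05 to 0.0155), against 17.1% of 27586 genes. Of all 7 members, 4 had every mutant below every control, against 20.9% of the genes above 0 in at least 1 library. The median log2 fold change of all genes was -0.15 at P0 and 0.03 after median-of-ratios scaling, which moved the calls of all genes from 27.6% higher and 72.4% lower to 54.2% higher and 45.8% lower. With that scaling *Krt8* had a log2 fold change of -1.69, *Krt19* of -0.80 and *Krt18* of -0.48, and *Krt7* one of 0.27. Controls with and without *K14-Cre* were interleaved in *Krt8*, at 4.52 and 3.71 FPKM with it and 4.89 and 3.68 without. In *Krt19* both controls with it were the higher (2.26 and 1.81 against 1.57 and 1.37), and in *Krt20* the lower (0.990 and 0.953 against 1.23 and 0.992). By sex-linked genes, 1 control and 3 mutants at P0 were male, and with sex as a term *Krt8* had a log2 fold change of -1.63, *Krt19* of -0.78 and *Krt18* of -0.47.

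**Figure D3:**
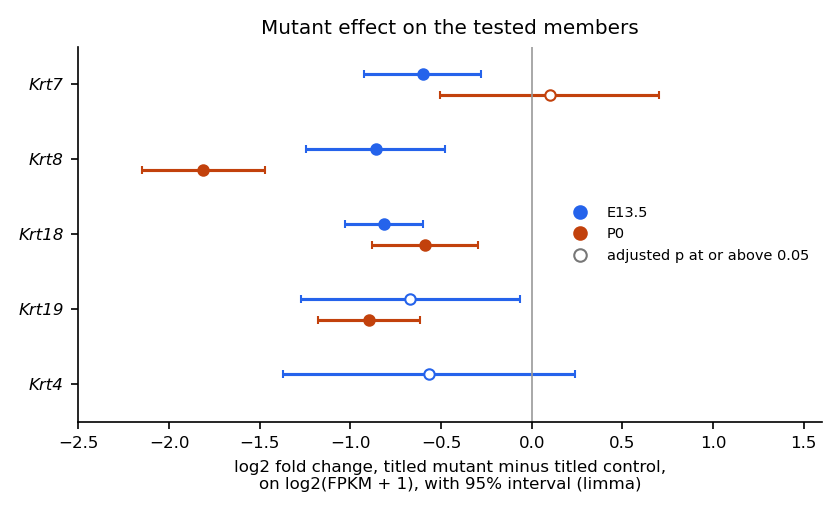
Log2 fold change of each tested keratin on log2(FPKM + 1), titled mutant minus titled control, with its 95% interval from limma, at E13.5 and P0; open points did not pass an adjusted p of 0.05. *Krt8* goes from -0.86 at E13.5 to -1.81 at P0 and *Krt7* from -0.60 to 0.10, and the E13.5 points change sign by column name.

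Among the 4 members tested at both stages, the mutant effect differed between stages for *Krt8*. Its effect at P0 minus that at E13.5 was -0.95 on the log2 scale (SE 0.24, adjusted p = 0.00423 from limma). This difference passed in 46.4% of the 11858 genes tested for it. *Krt8*, *Krt18* and *Krt19* entered this test at P0 through the controls alone. With no filter, an alternative chosen after the values were seen, *Krt8* passed (-0.95, limma adjusted p = 0.00919), as did *Krt20* (-0.98, limma adjusted p = 8.98e-08), where 30.2% of 24851 genes passed. *Krt20* was near the floor in every E13.5 library, with a log2 change there of -0.03. Its difference therefore restates its change at P0 (-1.01). With the filter, the difference between stages was 0.70 for *Krt7* (SE 0.33, adjusted p = 0.0895 from limma), 0.23 for *Krt18* (SE 0.16, adjusted p = 0.275) and -0.23 for *Krt19* (SE 0.31, adjusted p = 0.576). With E13.5 grouped by column name it was -2.67 for *Krt8*, -1.57 for *Krt19* and -1.40 for *Krt18*, all past the limma test, and -0.50 for *Krt7*, which did not pass (adjusted p = 0.256). With a pseudocount of 0.1 in place of 1, *Krt19* also passed, at -1.03 (limma adjusted p = 0.0331).

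*Krt8* and *Krt18*, an obligate pair in simple epithelia, were near equal in FPKM at E13.5 and not at P0. The ratio of *Krt8* to *Krt18* was 0.769 to 0.981 at E13.5 under the control titles and 0.736 to 0.952 under the mutant titles. P0 controls had ratios of 2.07 to 3.22, P0 mutants of 0.375 to 1.13. In every P0 mutant both genes were below 1 FPKM, so the mutant ratios rest on low values. The E13.5 groups overlapped and the P0 groups did not. This ratio was taken up after the values were seen and carries no test.

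**Figure D4:**
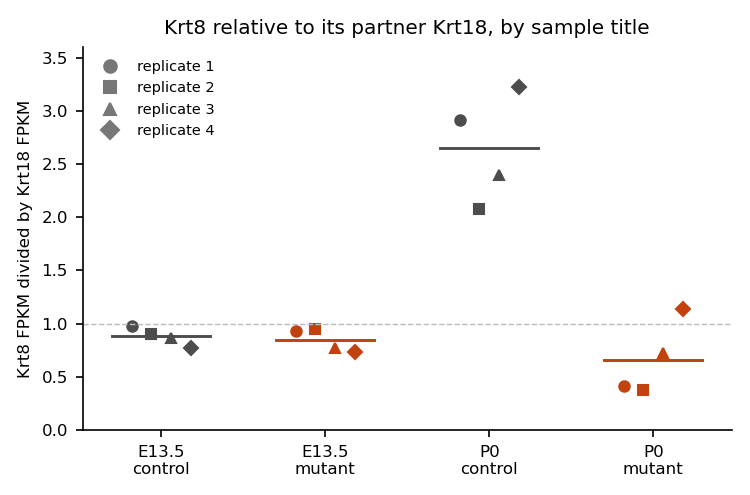
*Krt8* FPKM divided by *Krt18* FPKM in each library, by stage and sample title; points are libraries, lines are means of 4 and the dashed line marks equal levels. The P0 controls are at 2.07 to 3.22 and all other libraries at or below 1.13, and in the P0 mutants both genes are below 1 FPKM.

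Markers of Merkel cells moved with *Krt8*, *Krt18* and *Krt20* at P0. All 10 markers had every mutant below every control, against 20.9% of all genes above 0, and they summed to 4.13 to 4.88 FPKM in P0 controls and 0.402 to 0.768 in P0 mutants. *Atoh1*, the transcription factor required to make Merkel cells, was 0.305 to 0.787 FPKM in the controls and listed at 0 in the 4 mutants. *Pou4f3*, another of their transcription factors, averaged 0.844 ± 0.083 FPKM in the controls and 0.0363 ± 0.012 in the mutants, and *Sox2*, which dermal papilla cells also express, 0.379 ± 0.067 and 0.0285 ± 0.021. None of the 10 passed the filter at P0. At E13.5 the markers summed to 2.63 to 2.94 FPKM under the control titles and 2.73 to 2.89 under the mutant titles, most of it *Piezo2*, a mechanosensitive channel with means of 1.88 and 1.56 FPKM, and *Atoh1* was listed at 0 in all 8. At that stage 1 marker, *Pou4f3*, had every library titled mutant below every one titled control (means 0.0109 and 0.0826 FPKM), and 1, *Sox2*, above (0.307 and 0.0652), against 8.46% and 8.16% of all genes. The part of Merkel cells in the keratin differences at P0 was not tested. Hair follicle markers were also lower at P0, all 10 of 10 with every mutant below every control, with sums of 230 to 344 FPKM (control) and 32.9 to 44.7 (mutant), and their part was not tested. Of 6 fibroblast markers, 3 had every mutant below every control at P0, beside the same 20.9% of all genes as for the Merkel cell and hair follicle markers. Of 5 endothelial markers, 3 had every mutant above every control, against 7.16% of all genes, and the 5 summed to 0.346 to 0.648 FPKM in P0 controls and 1.30 to 1.59 in P0 mutants. The part of either cell type was not tested. Mesothelial markers summed to at most 0.138 FPKM in any P0 library.

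**Figure D5:**
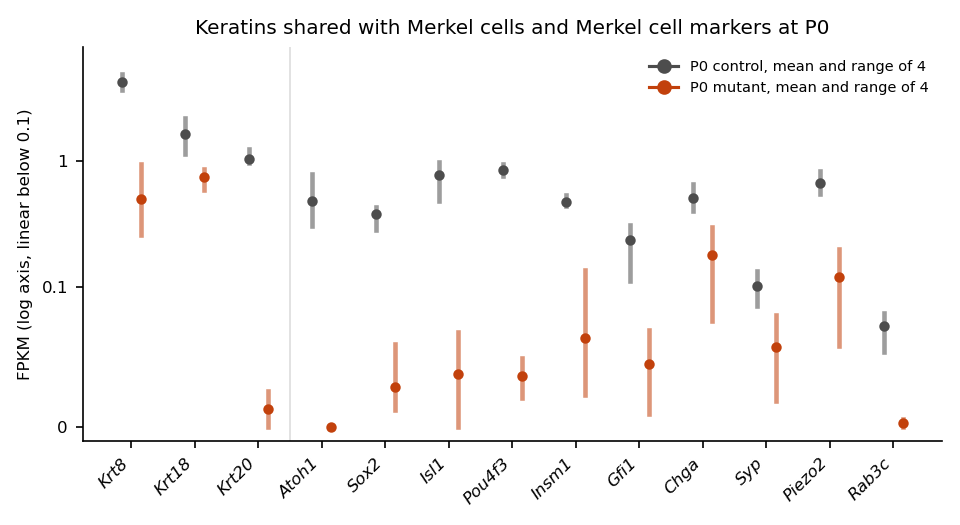
FPKM (log axis, linear below 0.1) at P0 of *Krt8*, *Krt18* and *Krt20*, left of the line, and of the 10 Merkel cell markers, right of it; points are means and bars the range of 4 libraries. In each gene the range of the mutants lies below that of the controls, with *Atoh1* listed at 0 in the 4 mutants.

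By title, other genes of the periderm were more often lower than higher at E13.5 and more often higher at P0. By column name they were more often higher in mutants at both stages. At E13.5, 4 of the 11 tested were lower in the libraries titled mutant, 1 was higher and 6 did not pass, beside 13.4% lower and 11.8% higher among all genes, with a median log2 fold change of -0.22. *Cldn6*, a claudin of embryonic epithelia, was 59.9 ± 2.47 FPKM in the libraries titled control and 41.1 ± 4.89 in those titled mutant (limma adjusted p = 0.0015). *Cldn4*, a tight junction claudin, was 101 ± 5.46 and 78.3 ± 5.46 FPKM, and *Arhgap29* 73.9 ± 3.90 and 60.7 ± 3.05. At P0, 4 of the 8 tested rose, 0 fell and 4 did not pass, beside 11.7% that rose and 30.7% that fell among all genes, a split that moves with the scaling as given above. *Sfn*, which encodes the protein 14-3-3 sigma, rose from 840 ± 110 to 2066 ± 85.2 FPKM, and *Cldn4* from 26.9 ± 7.91 to 106 ± 60.8 FPKM. *Grhl3*, a Grainyhead transcription factor of barrier formation, rose from 23.8 ± 2.75 to 43.4 ± 9.63 FPKM (limma adjusted p of these 3 genes, 3.28e-05 to 0.00654).

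By title, genes that tie keratin filaments to desmosomes and other anchors were higher or did not pass at both stages. By column name the 3 that passed at E13.5 were lower in mutants, opposite to P0. Of 9 tested at E13.5, 3 were higher and 0 lower (all genes, 11.8% and 13.4%), *Pkp1* (plakophilin 1) at 60.3 ± 2.45 FPKM in the libraries titled control and 90.6 ± 10.2 in those titled mutant. *Jup*, plakoglobin, was 167 ± 5.91 and 205 ± 22.4 FPKM, and *Plec*, the linker plectin, 10.8 ± 1.13 and 13.3 ± 1.20. At P0, 6 of 8 rose and 0 fell (all genes, 11.7% and 30.7%), among them *Jup* from 521 ± 45.2 to 873 ± 46.6 FPKM and *Dsp*, desmoplakin, from 400 ± 36.7 to 634 ± 135. Of 12 transcription factors of surface epithelium, 5 were higher and 0 lower at E13.5 by title. At P0, 6 rose and 3 fell, and the shares of all genes at each stage were those given above. *Gata3* was 24.9 ± 0.670 FPKM (titled control) and 39.2 ± 3.69 (titled mutant) at E13.5, and at P0 fell from 49.95 ± 2.62 to 36.0 ± 1.27. By column name *Gata3* was lower in mutants at both stages. *Ovol2*, which holds cells in an epithelial state, fell at P0 from 7.09 ± 0.554 to 2.69 ± 0.332 FPKM, and *Elf3*, an epithelial ETS factor, rose from 1.24 ± 0.290 to 3.31 ± 0.746.

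Other keratins also differed between the groups. At E13.5, 16 keratins were tested, of which 6 were lower and 3 higher, and without the members 3 of 11 were lower and 3 higher, where 13.4% and 11.8% of all genes were. Of those lower, *Krt6a* and *Krt71* entered the test only through the libraries titled control, so the count is no support for a fall of the family. *Krt1*, a suprabasal keratin, was 19.9 ± 3.43 FPKM in the libraries titled control and 80.6 ± 36.5 in those titled mutant, opposite in direction to *Krt8* and *Krt18*. At P0, 29 were tested, of which 16 fell and 6 rose, and without the members 13 of 25 fell and 6 rose, where 30.7% and 11.7% of all genes did. *Krt27*, *Krt28* and *Krt75*, like *Krt8*, *Krt18* and *Krt19*, entered this test through the controls alone, so the count that fell is no support either. *Krt6a*, which is induced in activated keratinocytes, rose at P0 from 43.1 ± 21.4 to 3098 ± 228 FPKM, and *Krt15*, a basal and follicle keratin, fell from 1588 ± 124 to 136 ± 37.0. By title both went the other way at E13.5, *Krt6a* from 2.10 ± 0.509 to 0.808 ± 0.13 FPKM and *Krt15* from 213 ± 49.0 to 324 ± 49.4 (limma adjusted p = 0.0203). By column name both went the same way at E13.5 as at P0. *Krt6a* passed the filter at E13.5 only through the libraries titled control, so it had to differ and its test is no support. *Krt5* did not pass at either stage (limma adjusted p = 0.558 at E13.5 and 0.899 at P0).

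By the Pearson correlation of log2(FPKM + 1) over the 16 libraries, among 11816 genes, the genes closest to *Krt18* were *Dzip1* (0.993), *Krt19* (0.992) and *Galnt18* (0.989). Those closest to *Krt19* were *Krt18* (0.992), *Hoxc8* (0.988) and *Yae1d1* (0.986). *Krt7* was closest to *Rbmxl1* (0.990), *Hoxc6* (0.987) and *Amotl2* (0.987). *Krt8* was closest to *Dynll2* (0.979), *Mmp11* (0.979) and *Rida* (0.976). These are descriptions over libraries that share stage, table and genotype, and most of the spread lies between the stages.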

How the data were processed

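The deposited files are 2 tables, 1 per stage, with FPKM values that the authors computed by the QuickNGS pipeline for 49452 genes in 16 libraries. The build is mm10, and the submitters' processing notes list FastQC 0.11.5 and bcl2fastq in versions 2.18.0.12 and 2.17.1.14. For the aligner, no name was found: not given in the sources used here. Stages were fitted apart in limma 3.58.1 (R 4.3.3), as a linear model of log2(FPKM + 1) with a trend of variance on the mean. A gene entered where 4 or more of 8 libraries had 1 FPKM or more. Tests were two-sided, and p-values were adjusted over all genes entered by Benjamini-Hochberg, at a threshold of 0.05. Intervals are 95% and use limma's moderated error. Stages were compared by the contrast of both mutant effects in 1 fit. Single members also had an exact permutation test. Sums, ratios, ranks and figures were made in Python 3.11.15 (numpy 2.4.6, scipy 1.17.1, pandas 2.3.3, matplotlib 3.10.9), and the fit was tested on simulated data. Relative depth was taken from the lowest FPKM values.

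The members and gene lists were chosen with earlier results of these data known. All members were named, with up to 4 genes of each other list by adjusted p, the defining markers of cell types, and the 3 genes most like each member tested at both stages. The linker *Eppk1* was not analysed here, and results for some single genes of the lists are left out. The alternatives changed the pseudocount (to 0.1), the filter (none, or a mean of 5 FPKM), the scaling (median of ratios, quantile), the weights of libraries, the variance trend, the covariates (replicate block, sex), the libraries (each left out in turn, those of 1 label number at E13.5, either kind of P0 control), the E13.5 grouping (column names) and the thresholds (the study's).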

Additional observations from a re-analysis of the deposited data

Results flagged for a closer look

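Of 28 groups of 4 libraries, 1 for each member, stage and genotype, 4 held a library far from the other 3, where chance gives about 1 group in 20. *Krt7* was 46.0 FPKM in the E13.5 library titled mutant 1 and 30.4 to 32.4 in the other 3. *Krt13* was 0.0691 FPKM in the E13.5 library titled control 3 and 0.128 to 0.136 in the other 3, and it was 0.903 FPKM in the library titled mutant 2 and 0.0849 to 0.0962 in the other 3. *Krt20* was 1.23 FPKM in P0 control 1 and 0.953 to 0.992 in the other 3. The mutant effect on *Krt8* differed between stages by -0.95 on the log2 scale (limma adjusted p = 0.00423), with the 4 mutants below the 4 controls by title at both stages. By column name the 4 mutants were above the 4 controls at E13.5, and the difference between stages was -2.67. *Krt8* entered these tests at P0 through the controls alone, and by title with no filter the limma adjusted p was 0.00919.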

How the results depend on the processing

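With E13.5 grouped by title, 163 of 171 values of single members under the alternatives kept their direction and their side of the threshold. Grouped by column name, the E13.5 log2 fold changes were 0.57 for *Krt4*, 0.60 for *Krt7*, 0.86 for *Krt8*, 0.82 for *Krt18* and 0.67 for *Krt19*, and the difference between stages passed for 3 members in place of 1, with -0.50 for *Krt7* and -1.40 for *Krt18*. With a pseudocount of 0.1 it passed for 2 members, and that of *Krt18* was -0.17. With no filter (chosen after seeing the data) it also passed for 2, of which that of *Krt20* restates its change at P0. Past the study's unadjusted p and fold, with the fold taken on log2(FPKM + 1), were 0 members at E13.5 and 1 at P0, where 3 passed the adjusted p at each stage. On plain FPKM the means of *Krt8*, *Krt19* and *Krt18* at P0 differ by more than that fold. With a minimum mean of 5 FPKM at P0, 0 passed, as only 1 member, *Krt7*, was tested (log2 fold change 0.10, limma adjusted p = 0.803). Leaving out 1 library at a time gave 3 to 4 members at E13.5 and 3 at P0, and log2 fold changes of -0.14 to 0.34 for *Krt7* at P0. Genes called in all went from 3243 to 1267 without the label number at E13.5 and to 145 by the study's thresholds, and at P0 from 5515 to 3002 with only the *K14-Cre* controls, 3235 with only the others and 1038 by the study's thresholds. Replicate numbers did not pair the libraries, as same-numbered libraries deviated together with correlations of -0.024 to 0.111. With no filter 2 of 7 members passed at E13.5 and 4 of 7 at P0. With a replicate block 4 members passed at E13.5, *Krt19* added (limma adjusted p = 0.028), and 3 at P0, with 2766 and 5130 genes in all. Depth is known only as a ratio, so no counting error could be given for levels near 0.1 FPKM, as of *Krt13* and *Krt20*.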

Other observations

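Within the 8 E13.5 libraries, looked at after the values were seen and with no test, the members fell into unlike pairs by the Pearson correlation of log2(FPKM + 1) among 12811 genes. The gene closest to *Krt4* was *Krt19* (0.965), while the correlation of *Krt4* with *Krt18* was 0.595. *Krt8* correlated with *Krt18* at 0.968 and with *Krt7* at 0.953. The gene closest to *Krt18* was *Arhgap29* of the periderm list (0.987), and the gene closest to *Krt8* was *B4galt4* (0.982). The libraries share genotype and preparation, so these values describe them and no more.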
